A study of Mus musculus with 10 samples.

Results

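Mouse oocytes labelled as a spermidine rescue were set against oocytes of young mice, to list which functions stayed apart from the young level and which lay near it. The comparison took the 4 spermidine and the 3 young columns of read counts, 7 of the 10 libraries of the series, and 12315 of the 18493 genes in the table had enough counts to be tested. The young group carries the treatment label Control, the aged group the label Treatment and the spermidine group the label Rescue, and each is named by the library title alone; ages, strain, dose and duration are not given in the sources used here. The design text describes spermidine as given to improve aged oocytes, so the 3 aged libraries are printed beside the 7 wherever a value needs them. Tissue is labelled ovary and cell type germ cell, and libraries were made by SMART-seq2, in which polyadenylated RNA is primed with oligo dT, copied whole and amplified. Nothing in the labels says that libraries came from separate animals, so a p-value here speaks of the spread among libraries, which may be technical.

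Spermidine, one of the polyamines, is a small cation that cells make from ornithine through putrescine and that binds nucleic acids. It is the substrate for the hypusine modification of the translation factor eIF5A and is known to induce autophagy, the delivery of cell parts to the lysosome for breakdown, of which mitophagy is the branch for mitochondria. A grown oocyte is almost silent in transcription and lives on stored messenger RNA, so the RNA measured in it reflects what was made during growth and what has been degraded since.

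The 7 libraries held 24222185 to 28730790 counts over 15326 to 15706 genes with a count. All 13 oocyte markers were tested and none was called in either direction by the edgeR quasi-likelihood test (3 had an unadjusted p below 0.05, and DESeq2 called none); their summed level was 24690 to 40750 CPM (counts scaled to library size) in spermidine and 32450 to 35830 CPM in young libraries. Of the markers of other cells, 6 of 16 for granulosa and cumulus cells, 5 of 12 for theca and stroma and 8 of 18 for blood and immune cells had enough counts to test. Of these edgeR called 1, the granulosa marker Nr5a2, an orphan nuclear receptor gene, higher (mean 4.44 CPM in young and 7.61 CPM in spermidine, adjusted p = 0.0297). The call was lost on leaving out any 1 of the young libraries or of spermidine libraries 1 to 3. The highest adjusted p was 0.116, without young library 1. Unadjusted p was below 0.05 for 2 granulosa markers, both higher, and for 2 theca and 6 blood markers, all lower. DESeq2 called no theca marker and 1 blood marker lower. The summed levels of the granulosa, theca and blood markers in spermidine and young libraries were 21.8 to 28.1 against 20.5 to 23.7 CPM, 2.38 to 4.09 against 3.60 to 7.79 CPM, and 8.54 to 11.2 against 10.95 to 45.3 CPM; 1 blood marker had no count in any of the 7. Haemoglobin transcripts reached 19.9 CPM in young library 1 and 13.6 CPM in young library 3 and were at most 0.145 CPM in young library 2 and in each spermidine library. Across genes, Pearson's r between a gene's deviation from the mean and its transcript length was 0.18 in spermidine library 1 and between -0.234 and -0.097 in the other 6. With the transcript's share of G and C bases (GC), r was -0.131, 0.126 and -0.315 in young and -0.084, -0.215, -0.107 and 0.217 in spermidine libraries. Both are a description only, since genes are not independent replicates.

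Of the 12315 genes, 424 were higher in spermidine than in young oocytes (3.44%) and 236 lower (1.92%), at a Benjamini-Hochberg adjusted p below 0.05 over all tested genes in the edgeR quasi-likelihood test. Of these 660 genes (5.36%), 422 differed at least 2-fold, 305 of them higher and 117 lower, and in 654 the spermidine and young libraries did not overlap, as in 21% of all genes (12.1% with spermidine above and 8.92% with it below). A second count took genes whose 95% interval of the difference lay wholly within 1.5-fold of young, called here near the young level; 3292 genes (26.7%) met it. The remaining 8363 genes (67.9%) met neither, so neither a difference nor nearness to young was established for them. The same counts for aged against young oocytes were 2189 called (17.8%), 1196 higher (9.71%) and 993 lower (8.06%), and 1788 near young (14.5%); spermidine against aged gave 598 (4.86%), 298 higher (2.42%) and 300 lower (2.44%). Both comparisons with young use the same 3 young libraries, the aged group has 3 libraries and the spermidine group 4, and the difference between the counts was not tested.

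How many genes could be placed near young depended on their level. The share rose from 0.0477% of genes under 1 CPM to 9.9% at 1 to 5 CPM, 32.7% at 5 to 20 CPM, 50% at 20 to 100 CPM and 53% at 100 CPM or more. Called genes made up 4.35% to 6.54% of each of these classes. Among the 14 called genes that were higher and the 37 that were lower at 100 CPM or more stood Tceal8 and Tsc22d1, both higher, and Jag1 and Zfp57, both lower. The 12 most abundant transcripts, from Fbxw24 at a mean of 8590 CPM in young oocytes to Clec16a at 72480 CPM, were not called, and they include the growth factor gene Gdf9, the ubiquitin gene Ubb and the lactate dehydrogenase gene Ldhb. Clec16a, an endosomal regulator of mitophagy, had 74220, 74150 and 69070 CPM in young and 40990, 65460, 72720 and 64000 CPM in spermidine libraries, so the groups overlapped. Scaling by total counts instead of TMM factors shifted the median over all genes from 0.045 to 0.229 (log2), and calls then split into 605 higher and 126 lower, and DESeq2 gave 579 and 520. With young library 1 left out 165 genes were higher and 118 lower, without young 3 the counts were 187 and 139, without young 2 they were 264 and 206, without spermidine 2 they were 229 and 147, and without aged 1, which changes the genes tested, the scaling and the shared estimate of spread, 496 and 378.

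**Figure D1:**
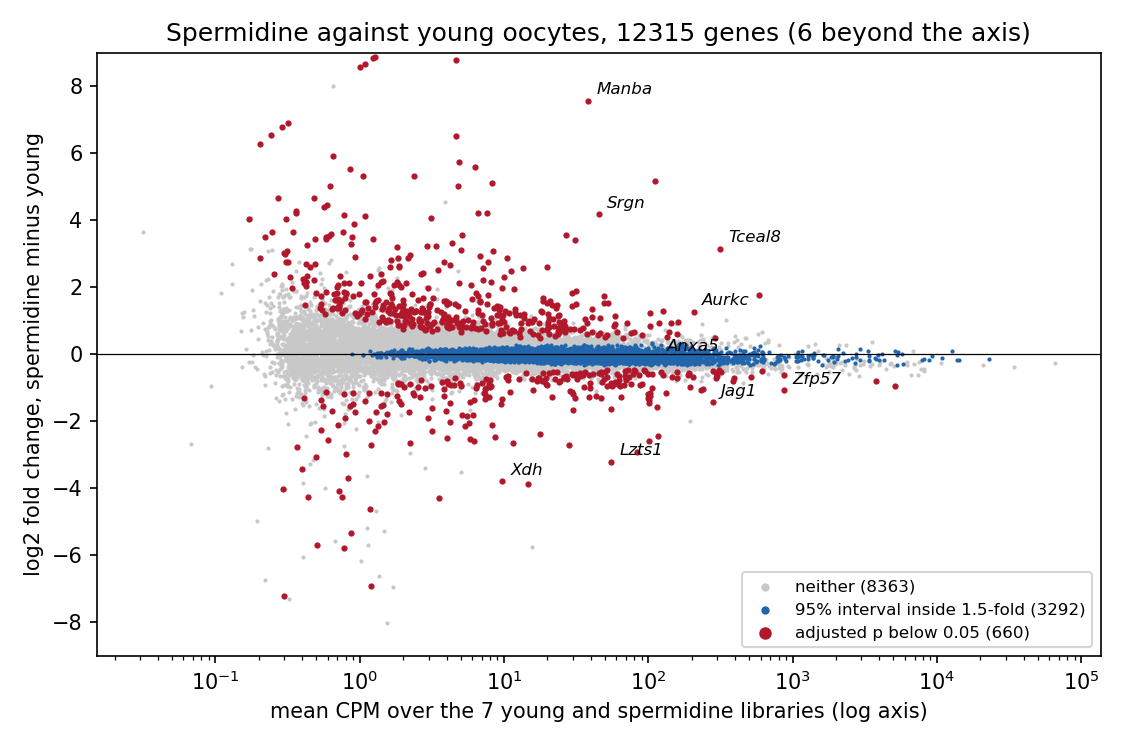
Mean CPM over the 7 young and spermidine libraries (x, log axis) against the log2 fold change of spermidine minus young (y) for each tested gene; red marks the 660 called genes, blue the 3292 with a 95% interval within 1.5-fold of young and grey the 8363 others. Blue points thin out below 5 CPM, 6 genes lie beyond the y axis, and fitted changes of genes without a count in a whole group depend on the prior count.

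The genes that stood farthest above young included the lysosomal enzyme gene Manba, the proteoglycan gene Srgn and the elongation factor-like gene Tceal8. Manba encodes beta-mannosidase, which removes mannose from glycoproteins in the lysosome. It had 0.230, 0.431 and 0.356 CPM in young, 74.2, 79.0, 63.0 and 50.9 CPM in spermidine and 58.0, 72.6 and 62.8 CPM in aged libraries. Young libraries were all low and the other 7 all high, with spermidine and aged overlapping. The log2 fold change to young was 7.58 ± 0.29 (SE; adjusted p = 2.21e-08), and that to aged was 0.05 (adjusted p = 0.882). Srgn, which encodes the granule proteoglycan serglycin of blood cells, had 8.85, 2.12 and 1.73 CPM in young, 80.3, 101, 91.3 and 31.9 CPM in spermidine and 63.1, 66.3 and 72.8 CPM in aged libraries, and its log2 fold change was 4.18 ± 0.49 (adjusted p = 0.00114). The blood and immune marker list was lower in sum in spermidine than in 2 of the 3 young libraries. Most of its sum in spermidine libraries was Pecam1, which averaged 8.58 CPM there and 8.98 CPM in young libraries. The part of blood cells in the Srgn value was not tested.

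Tceal8 is a member of a family on the X chromosome related to a transcription elongation factor. It had 62.4, 54.7 and 53.1 CPM in young, 281, 244 and 210 CPM in aged and 513, 504, 548 and 460 CPM in spermidine libraries. The 3 groups did not overlap, and spermidine was farther from young than aged was. Its log2 fold change was 3.16 ± 0.13 to young (adjusted p = 1.88e-07) and 1.05 to aged (adjusted p = 0.00285). Cldn34b2, of the claudin family of tight junction proteins, and Il17f, a cytokine gene, had the same order. Cldn34b2 averaged 11.97 CPM in young, 19.9 CPM in aged and 42.5 CPM in spermidine libraries, and Il17f 20.8, 36.6 and 70.1 CPM, and both were called against young (adjusted p = 0.000159 and 0.00119) and against aged (adjusted p = 0.0102 and 0.0411).

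Other genes were higher than young, among them Tsc22d1, which lay near the aged level. Tsc22d1, a leucine zipper gene induced by transforming growth factor beta, had 237, 162 and 337 CPM in young and 591, 750, 994 and 1008 CPM in spermidine libraries, with aged at 763 to 967 CPM. Spermidine and young libraries did not overlap, and its log2 fold change to young was 1.77 ± 0.24 (adjusted p = 0.00156). Clec12a, an inhibitory lectin receptor known from myeloid cells, rose from a mean of 12.3 to 45.9 CPM (adjusted p = 0.000872), B3gnt2, a glycosyltransferase gene, from 8.64 to 26.3 CPM (adjusted p = 0.000258) and Cnep1r1, the regulatory subunit of a nuclear envelope phosphatase that acts on lipid synthesis, from 9.62 to 29.3 CPM (adjusted p = 0.000476). Ccdc105 (log2 fold change 1.69) and Yae1d1 (1.54) were also higher, and every gene of this group named so far kept its call whichever library was left out. Prex2, a guanine nucleotide exchange factor gene, did not keep its call: it had 7.05, 13.4 and 7.96 CPM in young and 20.7, 21.0, 23.3 and 46.0 CPM in spermidine libraries, and its adjusted p of 0.016 became 0.11 without young library 1 and 0.0988 without young library 3. Prex2 was also called above aged (log2 fold change 1.79, adjusted p = 0.0155) while aged and young did not differ by the test (adjusted p = 0.623).

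Windows of 100 bases before the annotated start are shown for 2 of the genes farthest above young, Manba and Srgn, for Sirpb1c, the called gene of at least 20 CPM in the higher group farthest below it, and for Anxa5, a gene near it, to set the start regions of genes that stayed apart beside one that did not. They are from RefSeq on GRCm38.p6, 5′ to 3′ on the gene's strand, at chr3:135485511-135485610 on the plus strand for Manba and, on the minus strand, chr10:62527446-62527545 for the upstream of 2 Srgn starts, chr3:15848488-15848587 for Sirpb1c and chr3:36475888-36475987 for Anxa5. Capitals mark the motif CANNTG, the letters of an E-box, which reads the same on both strands.
Manba: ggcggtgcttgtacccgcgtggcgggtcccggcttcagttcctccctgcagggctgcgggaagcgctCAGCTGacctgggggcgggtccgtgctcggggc
Srgn: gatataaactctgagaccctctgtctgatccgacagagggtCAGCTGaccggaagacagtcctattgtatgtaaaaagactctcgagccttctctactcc
Sirpb1c: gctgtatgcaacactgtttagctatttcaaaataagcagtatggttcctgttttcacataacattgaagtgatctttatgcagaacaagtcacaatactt
Anxa5: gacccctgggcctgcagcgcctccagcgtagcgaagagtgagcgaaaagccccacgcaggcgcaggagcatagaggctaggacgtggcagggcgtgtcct
Manba and Srgn each held 1 copy, in both cases CAGCTG, and the other two windows held none. The downstream Srgn start and Tceal8, not printed, held none either. CANNTG was in 34.4% of all 32851 windows in the reference table, 28.5% of 12614 windows of tested genes, 34.5% of windows of called higher genes, 36.7% of called lower genes and 27.5% of genes near young. A match describes letters only.

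The genes that stood farthest below young included Agtpbp1, Sirpb1c and 2 solute carriers, Slc23a3 and Slc12a8. Agtpbp1 encodes a carboxypeptidase that trims glutamate chains from tubulin. It had 157, 168 and 174 CPM in young, 25.3, 17.9, 22.3 and 21.9 CPM in spermidine and 27.3, 25.2 and 22.4 CPM in aged libraries, so that all 7 others lay far below young. Its log2 fold change was -2.93 ± 0.14 to young (adjusted p = 2.33e-07) and -0.19 to aged (adjusted p = 0.427). Sirpb1c, a signal regulatory protein of a family with close copies, among which reads may be split, had 29.5, 35.6 and 29 CPM in young and 2.86, 2.18, 2.55 and 0.921 CPM in spermidine libraries (log2 fold change -3.87 ± 0.28, adjusted p = 1.68e-05). Slc23a3, of the nucleobase and ascorbate transporter family, had 189, 188 and 201 CPM in young and 28.3, 31.1, 52.8 and 17.5 CPM in spermidine libraries (log2 fold change -2.57, adjusted p = 0.000258). Slc12a8, of the cation and chloride cotransporter family, averaged 218 CPM in young and 40.5 CPM in spermidine libraries (adjusted p = 0.00252, and 0.0517 when aged 1 and spermidine 1 were left out together).

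Xdh, Lzts1 and H2-T22 lay below the aged level as well. Xdh encodes xanthine dehydrogenase, which makes uric acid in purine breakdown. It had 21.6, 18.4 and 22.2 CPM in young, 15.5, 10.3 and 8.18 CPM in aged and 1.35, 0.761, 3.16 and 0.767 CPM in spermidine libraries. No 2 of the groups overlapped, and the log2 fold change of spermidine was -3.79 ± 0.40 to young (adjusted p = 0.000258) and -2.92 to aged (adjusted p = 0.00481), while aged was not called against young (adjusted p = 0.144). Lzts1, a leucine zipper tumour suppressor gene, had 91.6, 143 and 103 CPM in young, 45.7, 88.0 and 80.6 CPM in aged and 11.6, 13.0, 7.90 and 16.4 CPM in spermidine libraries. Spermidine was again the lowest group without overlap, with a log2 fold change of -3.20 to young (adjusted p = 4.76e-05) and -2.55 to aged (adjusted p = 0.0013). H2-T22, a non-classical class I histocompatibility gene whose close copies make its counts uncertain, averaged 22.2 CPM in young, 35.6 CPM in aged and 3.59 CPM in spermidine libraries, with adjusted p = 0.00173 against young and 0.00204 against aged.

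**Figure D2:**
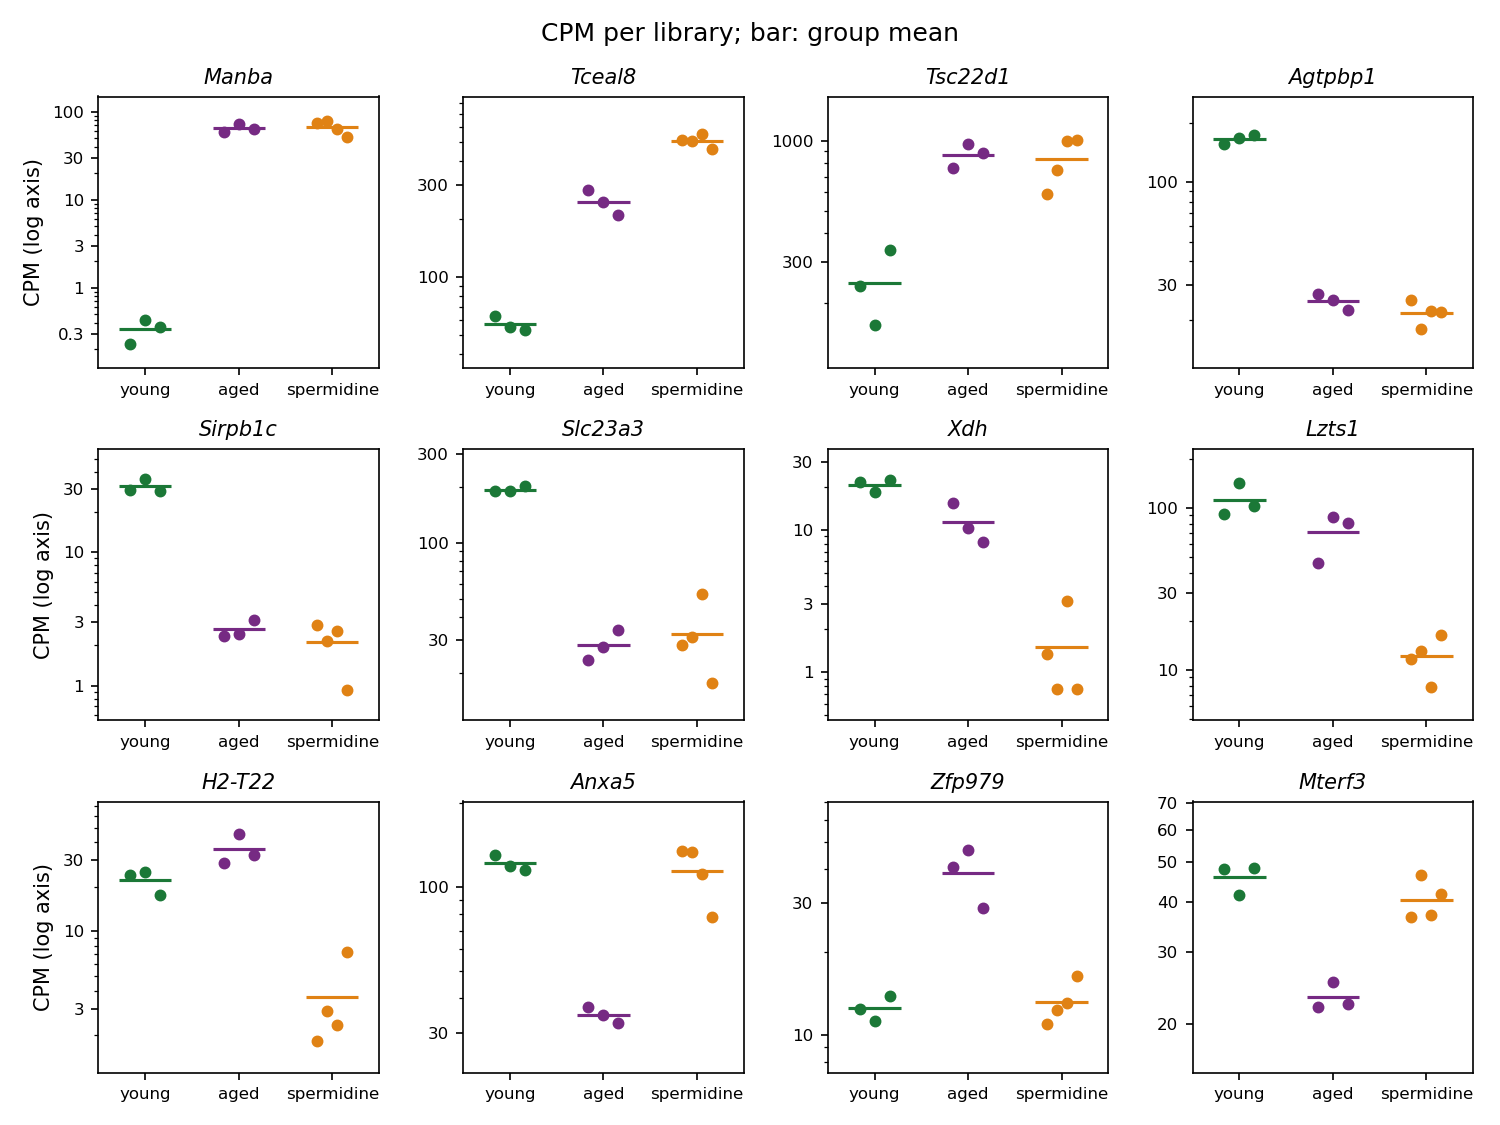
CPM of 12 genes in each of the 10 libraries (y, log axis with its own range per gene); each point is 1 library and the bar the group mean. Manba, Tsc22d1, Agtpbp1, Sirpb1c and Slc23a3 have spermidine beside aged, Tceal8, Xdh, Lzts1 and H2-T22 have spermidine beyond or away from aged, and Anxa5, Zfp979 and Mterf3 have spermidine beside young.

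Among the other genes farthest below young, Bcat2, the mitochondrial aminotransferase of branched-chain amino acids, had 56.2, 65.4 and 43.5 CPM in young and 4.81, 5.48, 3.36 and 20.3 CPM in spermidine libraries. The groups did not overlap, though spermidine library 4 stood apart, and the log2 fold change was -2.70 ± 0.50 (adjusted p = 0.00847, and 0.101 when aged 1 and spermidine 1 were left out together). The Bcat2 call was also lost when only the young and spermidine libraries were fitted, and when genes were not filtered by counts. Utp23, a ribosome assembly factor, fell from a mean of 89.5 to 29.1 CPM (adjusted p = 0.000992), Gna14, a G protein alpha subunit, from 184 to 62.0 CPM (adjusted p = 0.000525) and Dnah8, an axonemal dynein, from 160 to 58.5 CPM (adjusted p = 0.00318). H2-T10, another non-classical class I gene with close copies, fell from 49.6 to 15.6 CPM (adjusted p = 0.000833).

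A set of 112 genes was called in aged against young, was called in spermidine against aged, and was near the young level in spermidine. These criteria fix the pattern, and both comparisons with young share the young libraries, so the values are a description. Anxa5, which encodes a calcium-dependent phospholipid-binding protein, had 131, 119 and 116 CPM in young, 37.2, 34.8 and 32.6 CPM in aged and 135, 134, 112 and 78.3 CPM in spermidine libraries. Aged libraries were the low ones, and the ranges of spermidine and young overlapped, with spermidine 4 the lowest of them. Mterf3, a mitochondrial factor of the MTERF family, averaged 46.1 CPM in young, 23.3 CPM in aged and 40.5 CPM in spermidine libraries, and Commd10, of the COMMD family that takes part in endosomal sorting, 21.9, 10.7 and 18.6 CPM; each spermidine library of Commd10 was still below each young one.

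The other 9 of the 12 largest changes of this kind were high in aged libraries. Zfp979, a zinc finger gene, had 12.4, 11.2 and 13.9 CPM in young, 40.7, 46.6 and 28.8 CPM in aged and 10.95, 12.3, 13.0 and 16.4 CPM in spermidine libraries. Rela, a subunit of the transcription factor NF-kappa-B, averaged 9.80, 23.3 and 10.3 CPM in young, aged and spermidine libraries. Mark2, a microtubule affinity kinase gene, averaged 19.0, 42.4 and 18.1 CPM. Stk35, a nuclear kinase gene, averaged 22.4, 45.4 and 23.4 CPM. Mark2 and Stk35 were the only 2 of the 12 that stayed within 1.5-fold of young whichever library was left out, and Stk35 left it under total-count scaling. Gtf3c2, a subunit of a general factor for RNA polymerase III, Naa40, an N-terminal acetyltransferase gene, Natd1, Adgrg1 and Fbxo21 made up the rest.

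Several genes lay between the aged and the young level and were called against both. Dbt, the core acyltransferase of the complex that breaks down branched-chain keto acids, had 1.98, 2.26 and 2.62 CPM in young, 53.7, 66.3 and 64.8 CPM in aged and 23.4, 17.0, 19.8 and 6.37 CPM in spermidine libraries. The 3 groups did not overlap, with adjusted p = 0.000872 to young and 0.0112 to aged. Ahcy, which breaks down S-adenosylhomocysteine, averaged 0.352, 5.08 and 1.80 CPM in young, aged and spermidine libraries (adjusted p = 0.002 to young and 0.0121 to aged). Per3, a repressor of the circadian clock, averaged 10.1, 44.9 and 24.4 CPM (adjusted p = 0.00336 and 0.031). Gtf2a1l, a germ cell form of a general transcription factor, averaged 331, 92.3 and 157 CPM (adjusted p = 0.00545 and 0.0437).

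The functions were then compared through lists of genes, each described by the members that edgeR called. The background over all tested genes was 3.44% higher and 1.92% lower. Nuclear genes of the respiratory chain and of the ribosomes were the lists with most members near young. Of the 48 genes of respiratory complex I, the entry point of electrons from NADH, none was called against young in spermidine oocytes by edgeR (2 higher and 4 lower had an unadjusted p below 0.05, and DESeq2 called none). The same 48 genes had 23 lower and none higher in aged oocytes. Their median log2 fold change was -0.126 in spermidine and -0.513 in aged oocytes, with all genes at 0.045 and 0.098, and over the alternatives the spermidine median ran from -0.198 to 0.055, above 0 under total-count scaling. The list's median deviation from the mean of all libraries was 0.29, 0.07 and 0.24 on the log2 scale in young, 0.17, 0.23, 0.04 and -0.10 in spermidine and -0.31 to -0.23 in aged libraries. Spermidine libraries 1 and 2 lay within the young range, 3 and 4 below it, and each was above the aged libraries.

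Lists were compared at like abundance by taking members of at least 20 CPM, of which 1945 of 3819 over all genes (50.9%) were near young in spermidine and 1097 (28.7%) in aged oocytes. Complex I had 32 of 41 members near young in spermidine (78%) and 6 in aged (14.6%). The mitochondrial ribosome, which translates the few proteins encoded in mitochondrial DNA, had 43 of 56 (76.8%) and 14 (25%). Cytosolic ribosomal proteins had 55 of 75 (73.3%) and 24 (32%), and respiratory complexes II to V 34 of 50 (68%) and 8 (16%). The proteasome, the complex that degrades ubiquitin-tagged proteins, had 21 of 38 (55.3%) and 5 (13.2%), and nutrient sensing genes 10 of 18 (55.6%) and 2 (11.1%). Among lists with at least 10 such members, polyamine metabolism stood at the other end with 2 of 16 in spermidine (12.5%) and 3 in aged (18.8%), zona and secreted oocyte genes with 3 of 15 in both (20%), and endoplasmic reticulum chaperones and the unfolded protein response with 4 of 18 (22.2%) and 3 (16.7%). Of 4 such histocompatibility genes none was near young in either group.

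**Figure D3:**
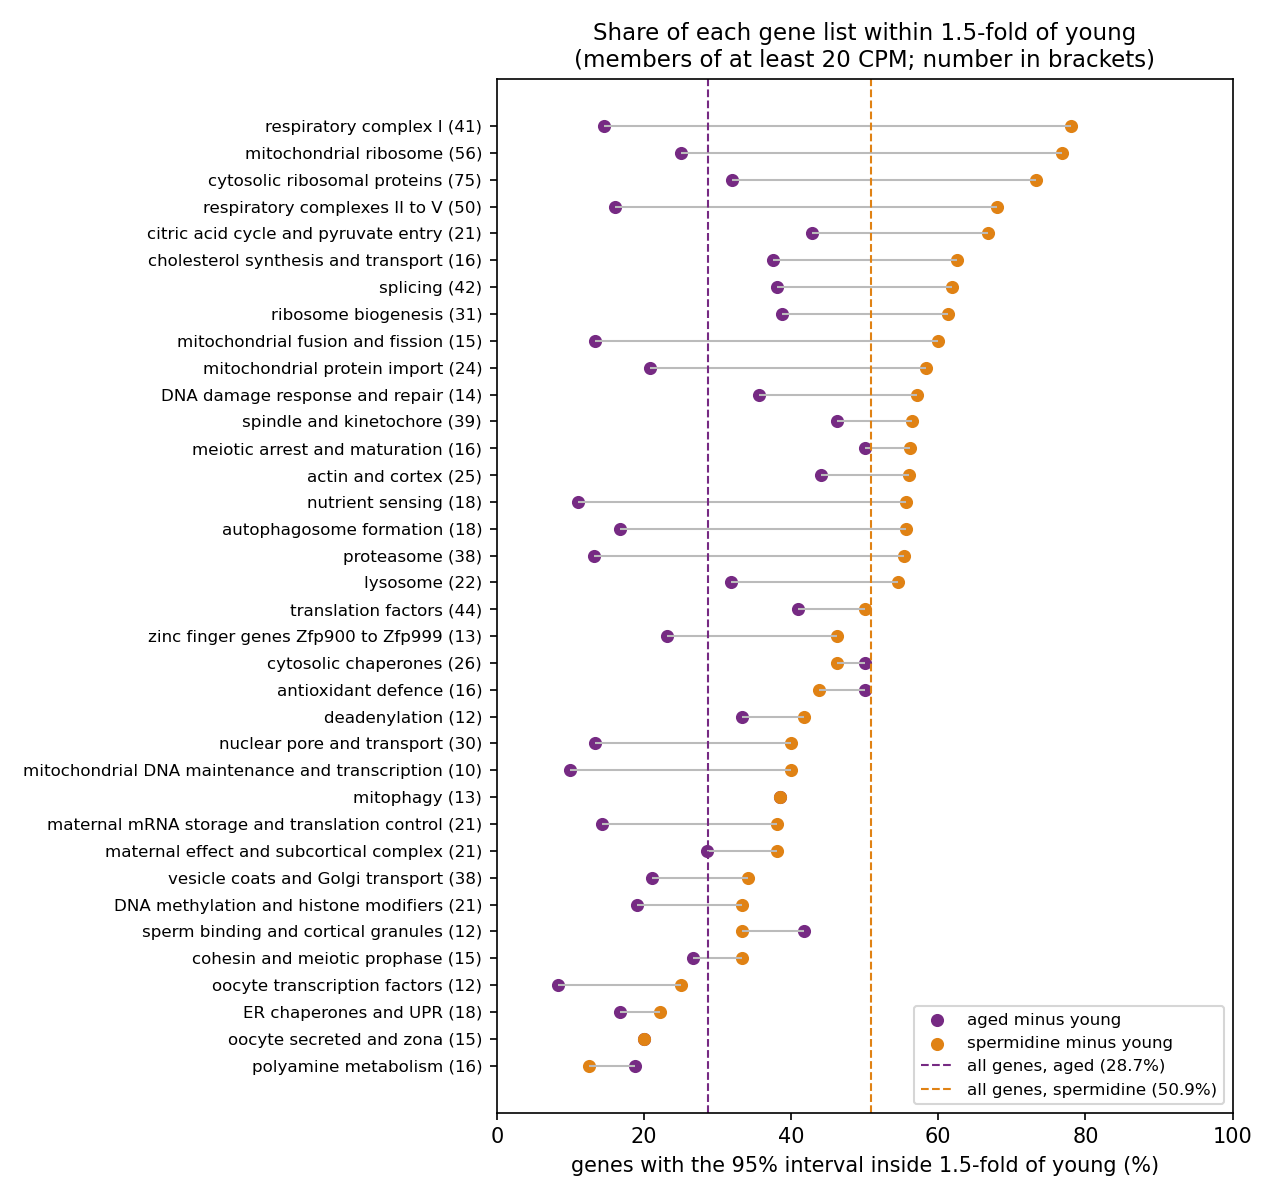
Share of each gene list's members of at least 20 CPM with a 95% interval within 1.5-fold of young (x, percent), in aged (purple) and spermidine (orange) oocytes; dashed lines give the shares of all genes, 28.7% and 50.9%. The widest gaps between the 2 points are in complex I, the mitochondrial ribosome and complexes II to V.

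Inside the mitochondrial lists a few members stayed apart. Timm10, a chaperone of the space between the mitochondrial membranes that passes proteins to the inner membrane, had 78.3, 62.6 and 73.4 CPM in young and 25.9, 26.8, 32.4 and 30.1 CPM in spermidine libraries, with aged at 22.02 to 26.0 CPM. The groups did not overlap, and its log2 fold change was -1.31 ± 0.14 (adjusted p = 0.000209). Nipsnap1, a matrix protein that marks damaged mitochondria for mitophagy, averaged 87.1 CPM in young, 37.0 CPM in aged and 56.2 CPM in spermidine libraries and was called against both (adjusted p = 0.0306 and 0.0463). Uqcc2, an assembly factor of complex III, fell from 60.9 to 42.4 CPM and Ttc19, another such factor, from 32.2 to 18.7 CPM, the 2 genes of 70 of complexes II to V that edgeR called. Over the alternatives 0 to 3 were called lower and 0 to 1 higher.

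The members that were higher included Mrpl39 of the mitochondrial ribosome, with 59.7, 55.2 and 59.4 CPM in young, 97.8, 96.2, 82.3 and 85.0 CPM in spermidine and 46.1 to 64.3 CPM in aged libraries. Spermidine stood above both other groups (adjusted p = 0.0218 to young and 0.0236 to aged), and it was the only one of 78 genes of the list that was called by edgeR; DESeq2 called 1 higher and 7 lower. Timm8a1, a small import chaperone, rose from 18.1 to 27.5 CPM (adjusted p = 0.0471). Tfam, which packs mitochondrial DNA, and Rnaseh1, which removes RNA hybrids from it, were higher among 24 genes of mitochondrial DNA upkeep. Acadl, Echs1 and Hadh, 3 enzymes of fatty acid oxidation, were higher among 19. The median log2 fold change of the 19 was -0.027, and 8 were above 0. Echs1 had 29.7, 30.8 and 30.4 CPM in young and 40.9, 44.7, 53.9 and 53.0 CPM in spermidine libraries, without overlap. Pdha1 and Pdk1, a subunit of pyruvate dehydrogenase and a kinase that inhibits it, were both higher among 27 genes of pyruvate entry and the citric acid cycle. No gene of mitochondrial fusion and fission was called among 21 (2 had an unadjusted p below 0.05, and DESeq2 called none). Except for Timm10, each call in these mitochondrial lists was lost when at least 1 library was left out. Without young library 1 the adjusted p was 0.106 for Nipsnap1, 0.133 for Uqcc2 and for Echs1, 0.159 for Tfam and 0.0754 for Pdha1, and without young library 3 it was 0.111 for Mrpl39. Pdk1 lost its call in 9 of 10 such runs (adjusted p up to 0.225) and Hadh in 8 (up to 0.173). Both also lost it when only the young and spermidine libraries were fitted.

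Autophagy, the process in the study's title, and the lysosome had most members uncalled against young, as had all tested genes (5.36% called). Of 31 mitophagy genes, Optn, a receptor that links ubiquitin-tagged mitochondria to the autophagosome, and Calcoco1, an autophagy receptor, were higher and Nipsnap1 lower. The Calcoco1 call was lost on leaving out any 1 of the young libraries or spermidine library 1 (adjusted p up to 0.131, without young library 3). Optn had 22.1, 25.5 and 20.6 CPM in young and 52.7, 51.1, 46.1 and 38.8 CPM in spermidine libraries, with no overlap, and a log2 fold change of 1.05 (adjusted p = 0.00666, and 0.0557 without young library 3). The median of the mitophagy list was 0.08 in spermidine and 0.26 in aged against young. Of 40 genes of autophagosome formation Stx17, the syntaxin that fuses autophagosome and lysosome, was higher (18.2 to 32.6 CPM, adjusted p = 0.0106, and 0.0774 without young library 1).

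Of 59 lysosomal genes 5 were higher (8.47%, against 3.44% of all genes) and none lower by edgeR; 5 genes with lower values had an unadjusted p below 0.05. Beside Manba they were 2 further glycosidases, Glb1, a beta-galactosidase, and Hexa, a hexosaminidase, the proton pump subunit Atp6v0e2 and the membrane protein Scarb2. Glb1 had 3.69, 3.91 and 3.56 CPM in young and 7.34, 9.03, 10.9 and 7.67 CPM in spermidine libraries, with aged at 9.32 to 11.7 CPM, and a log2 fold change of 1.23 ± 0.18 (adjusted p = 0.00244). Manba and Glb1 kept their calls whichever library was left out, while Hexa reached an adjusted p of 0.174 without young library 3 and Atp6v0e2 of 0.146 without young library 1. By the cellular component terms in the deposited table, lysosome was given for 1.65% of the higher genes and 2.39% of all tested genes. The excess was thus seen in the list and not in those terms.

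Lists for making and degrading proteins differed in their shares of called genes, with all genes at 3.44% higher and 1.92% lower. Translation factors had 1.64% in each direction, and the proteasome 0% higher and 4.17% lower. The list of the unfolded protein response had 3.03% higher and 0% lower, and cytosolic chaperones 5.71% and 2.86%. Of 85 cytosolic ribosomal protein genes edgeR called none (2 higher and 9 lower had an unadjusted p below 0.05; DESeq2 called 2 higher and 1 lower), against 17 lower in aged oocytes. Their median log2 fold change was -0.14 in spermidine and -0.355 in aged oocytes, and 0.048 in spermidine under total-count scaling. Of 48 proteasome genes, Psma1, of the core ring, and the assembly chaperone Psmd5 were lower, against 14 in aged oocytes, with adjusted p = 0.162 and 0.114 when young library 1 was left out; the spermidine median of -0.19 was the lowest of these lists. All 12 proteasome genes with an unadjusted p below 0.05 were lower, and DESeq2 called 6 lower.

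Edem1, which directs misfolded glycoproteins of the endoplasmic reticulum to degradation, was the 1 gene that edgeR called among 33 of the unfolded protein response. Over the alternatives 0 to 2 were called lower. It had 3.36, 2.51 and 3.91 CPM in young and 13.0, 10.7, 11.4 and 8.90 CPM in spermidine libraries, with aged at 7.08 to 13.0 CPM, so both other groups stood above young (log2 fold change 1.76 ± 0.25, adjusted p = 0.00202). Among 61 translation factors Eif4ebp2, a repressor of cap-dependent initiation, was higher (0.609 to 1.82 CPM, adjusted p = 0.00937, and 0.0581 without young library 3) and Eif4a3l1, a helicase-like gene related to Eif4a3, lower (1.64 to 0.0812 CPM, adjusted p = 9.79e-05). The chaperones Hspb1 and Cct4 were higher and Dnajc7 lower among 35. Of these 3, Hspb1 lost its call without young library 3 (adjusted p = 0.0979), and Cct4 and Dnajc7 lost theirs without young library 1 (0.124 and 0.0838).

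**Figure D4:**
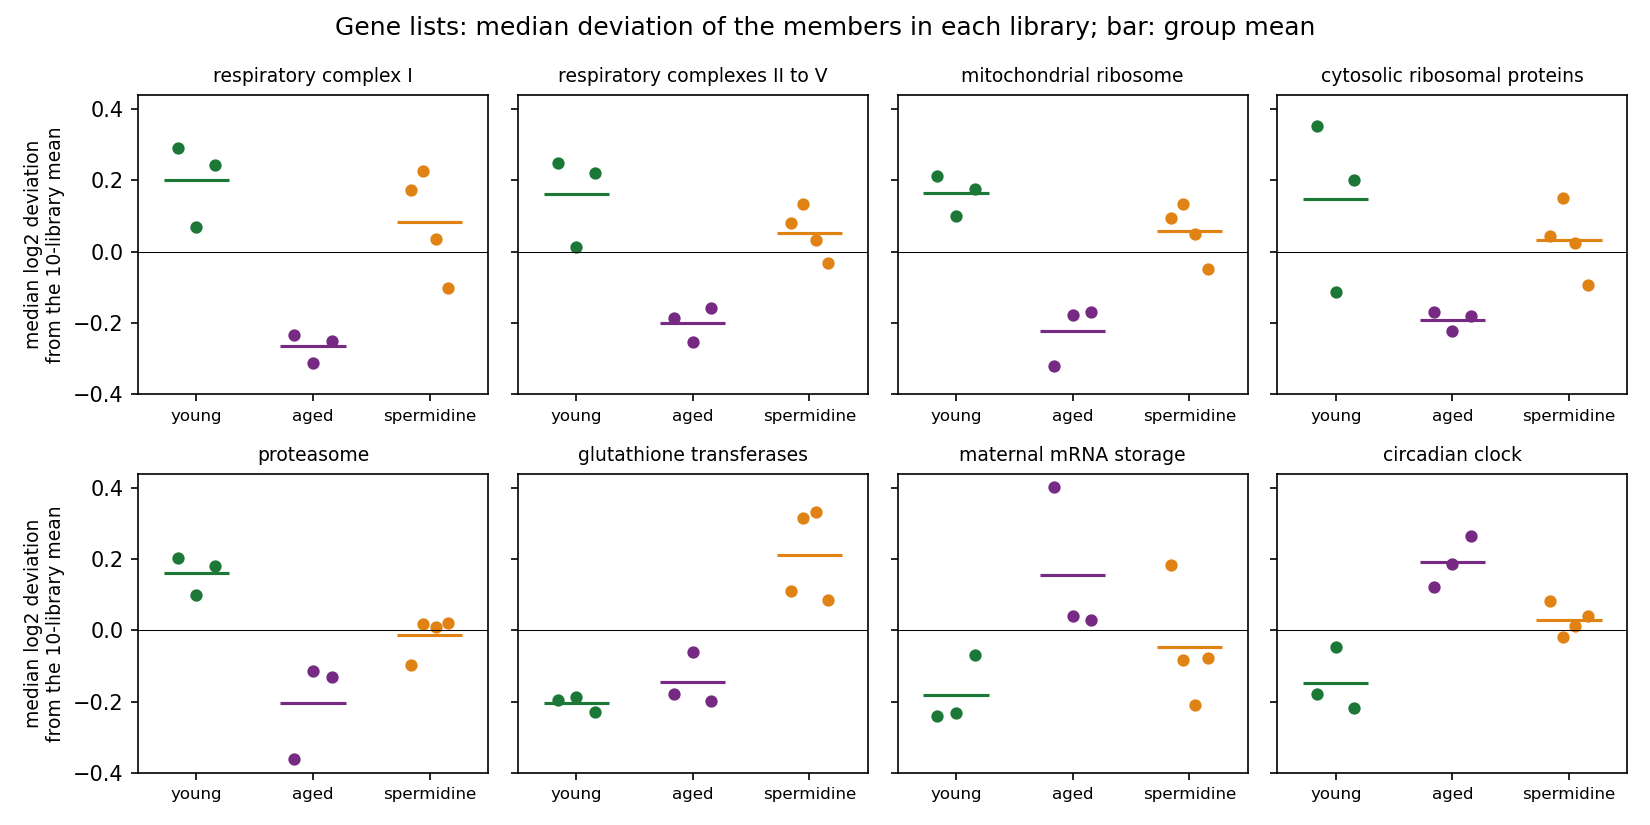
Median over a list's tested genes of the log2 deviation from the mean of the 10 libraries (y), for 8 lists in each library; each point is 1 library and the bar the group mean. Complex I and the mitochondrial ribosome have aged libraries below the other groups, glutathione transferases have all 4 spermidine libraries above the young and aged ones, and the proteasome has all 4 spermidine libraries below the young ones.

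Most genes of the oocyte lists were not called, which also held for all tested genes, of which 5.36% were called. Of 16 oocyte transcription factors, 2 were lower (12.5%, against 1.92% of all genes) and 0 higher (against 3.44%). None of 35 genes of maternal mRNA storage and translation control was called by edgeR (4 higher and 3 lower had an unadjusted p below 0.05; DESeq2 called 2 higher), where aged oocytes had 9 higher; the median was 0.164 in spermidine and 0.56 in aged oocytes and ran from -0.031 to 0.379 over the alternatives. Cpeb1, which binds the cytoplasmic polyadenylation element of stored messages, had 284, 260 and 291 CPM in young and 259, 220, 277 and 402 CPM in spermidine libraries, so the groups overlapped, against a mean of 515 CPM in aged oocytes. No gene of 19 for deadenylation and none of 15 for the zona and secreted factors was called by edgeR (0 higher and 3 lower, and 0 higher and 2 lower, at an unadjusted p below 0.05; DESeq2 called 1 lower in each). Zp3, the zona protein that binds sperm, had 5294, 5070 and 4422 CPM in young and 4111, 4872, 5363 and 6581 CPM in spermidine libraries and was near young.

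Jag1, Zfp57, Gtf2a1l and Hormad1 were oocyte genes called below young. Jag1, a Notch ligand that oocytes present to granulosa cells, had 447, 395 and 465 CPM in young, 306, 229 and 228 CPM in aged and 194, 164, 157 and 133 CPM in spermidine libraries. No groups overlapped and spermidine was lowest (log2 fold change -1.43 ± 0.16, adjusted p = 0.000258; adjusted p = 0.0387 against aged). Zfp57, a maternal-effect zinc finger protein that keeps imprints methylated, had 1133, 1350 and 1257 CPM in young, 789, 1354 and 1142 CPM in aged and 457, 484, 664 and 764 CPM in spermidine libraries. Spermidine again lay below both groups (adjusted p = 0.0104 to young and 0.0375 to aged), and aged was not called against young (adjusted p = 0.574). Hormad1, a chromosome axis protein of meiotic prophase, fell from 65.1 to 27.3 CPM (adjusted p = 0.00648), with aged at 16.6 CPM. Among 32 genes of cohesin and meiotic prophase, 1 was called higher and 1 lower. Their median log2 fold change was 0.227, and 22 were above 0. Tex15, another meiotic prophase gene, was called higher, a call lost on leaving out any 1 of the young libraries (adjusted p up to 0.107).

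Of 51 spindle and kinetochore genes, edgeR called Ndc80, Haus1 and Aurkc higher and none lower (5 higher and 7 lower had an unadjusted p below 0.05). Over the alternatives 0 to 4 were called lower. Ndc80, which couples kinetochores to microtubules, had 41.9, 35.2 and 39.9 CPM in young and 68.9, 67.3, 80.1 and 77.9 CPM in spermidine libraries, with aged at 76.9 to 89.9 CPM (log2 fold change to young 0.92 ± 0.13, adjusted p = 0.00156). Aurkc, the meiotic aurora kinase, had 111, 132 and 98.6 CPM in young and 157, 235, 255 and 457 CPM in spermidine libraries, without overlap but widely spread (adjusted p = 0.0283, and 0.153 without young library 3). Haus1, of the augmin complex that branches microtubules, rose from 34.6 to 76.6 CPM (adjusted p = 0.00561, and 0.0526 without young library 3). Wee1, a kinase that inhibits CDK1, was the 1 called gene of 30 for meiotic arrest, with 3.23, 2.48 and 3.91 CPM in young and 10.1, 9.50, 6.68 and 11.7 CPM in spermidine libraries, without overlap (adjusted p = 0.00264).

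Genes of sperm binding and cortical granules, the vesicles released at fertilisation, moved in both directions. Of 25 tested, 3 were higher (12%) and 2 lower (8%), against 3.44% and 1.92% of all genes. Over the alternatives 0 to 4 were called higher and 2 to 3 lower. Vamp3, a vesicle fusion protein, fell from 32.1 to 13.4 CPM (adjusted p = 0.00116), and Fetub, which encodes fetuin-B, an inhibitor of the protease that hardens the zona, had 89.0, 91.2 and 77.7 CPM in young and 41.5, 39.6, 54.2 and 46.6 CPM in spermidine libraries, without overlap (adjusted p = 0.00276). Rab27a, a vesicle-docking GTPase, rose from 12.1 to 18.5 CPM and was also above aged (adjusted p = 0.0288 and 0.0166), Nsf, which recycles fusion complexes, rose from 45.3 to 71.6 CPM (adjusted p = 0.0398), and Rab27b, at 0.121 and 0.766 CPM, is too low in young libraries for a firm fold. The Rab27a call was lost without young library 3 (adjusted p = 0.206).

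Glutathione transferases, which join glutathione to reactive compounds, had the largest share of called genes of the 49 lists. Of 19 tested, 5 were higher (26.3%) and 1 lower (5.26%) against 3.44% and 1.92% of all genes, with a median log2 fold change of 0.491; aged oocytes had 1 higher and 3 lower, with a median of 0.104. The list's median deviation was -0.20, -0.19 and -0.23 in young, -0.18, -0.06 and -0.20 in aged and 0.11, 0.32, 0.33 and 0.08 in spermidine libraries, so all 4 spermidine libraries were above the other 6. Between 1 and 8 members were called higher over the alternatives, and the median stayed between 0.341 and 0.672.

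Gstm5 had 128, 121 and 113 CPM in young, 164, 132 and 134 CPM in aged and 184, 195, 180 and 178 CPM in spermidine libraries, where spermidine was the highest group without overlap (log2 fold change 0.61 ± 0.12, adjusted p = 0.0114). Gsta4, which acts on lipid peroxidation products, had 241, 223 and 238 CPM in young and 317, 365, 339 and 295 CPM in spermidine libraries (adjusted p = 0.0355). Gstp2, a pi-class form with a close copy in Gstp1, rose from 3.71 to 10.5 CPM (adjusted p = 0.00205), Gsto1, an omega-class form, from 3.29 to 6.61 CPM (adjusted p = 0.014) and Gstz1, which acts in tyrosine breakdown, from 9.53 to 15.0 CPM (adjusted p = 0.0431). Gsto2 fell from 29.5 to 17.7 CPM (adjusted p = 0.0154), with aged at 12.3 CPM. Without young library 3 the adjusted p of Gstm5 was 0.117, without young library 1 that of Gsto1 was 0.108 and without young library 2 that of Gsto2 was 0.0653, while Gstp2 kept its call whichever library was left out.

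Polyamine metabolism, to which the treatment itself belongs, had 1 called gene among 26, Ahcy, an enzyme of the linked methionine cycle. Unadjusted edgeR p was below 0.05 for 5 higher genes, Ahcy among them, and 1 lower gene. Lack of a call did not place the list near young, since 2 of its 16 members of at least 20 CPM were near young (12.5%, against 50.9% of all genes). The genes of the core pathway were not called: Odc1, the ornithine decarboxylase that starts polyamine synthesis, had 26.8, 34.6 and 20.7 CPM in young and 52.9, 45.4, 32.2 and 33.2 CPM in spermidine libraries (log2 fold change 0.58, 95% interval -0.05 to 1.21). Sms, the spermine synthase that uses spermidine, had 147, 144 and 164 CPM in young and 178, 198, 203 and 233 CPM in spermidine libraries; the groups did not overlap, but the adjusted p was 0.0885. Sat1, which acetylates spermidine for export, averaged 23.9 and 22.2 CPM and was near young. Among 38 antioxidant genes Gpx6, a glutathione peroxidase, was higher (19.0 to 31.9 CPM, adjusted p = 0.0281, and 0.176 without young library 1), and none of 19 glycolysis genes was called by edgeR (2 higher and 2 lower at an unadjusted p below 0.05; DESeq2 called 1 lower).

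Lists of surface, zinc finger and Wnt genes each held called members in both directions. Of 17 tested histocompatibility and antigen presentation genes 4 were lower (23.5%, against 1.92% of all genes) and 1 higher (5.88%, against 3.44%); H2-T22, H2-T10, H2-M5 and H2-D1 were lower and H2-Q2, at 0.0388 CPM in young and 0.575 CPM in spermidine libraries, was higher. H2-D1 had 5.48, 0.934 and 1.42 CPM in young, with library 1 high, and 0.580 to 0.652 CPM in spermidine libraries; young library 1 was also the one with most haemoglobin, and the part of blood cells in this value was not tested. Of 56 zinc finger genes named Zfp900 to Zfp999, a family of close copies in which reads may be shared, 4 were higher and 4 lower (7.14% each, against 3.44% and 1.92% of all genes). Zfp963 had 13.4, 15.5 and 15.6 CPM in young, 8.41, 9.78 and 10.7 CPM in aged and 5.26, 5.15, 6.52 and 6.67 CPM in spermidine libraries, the lowest group without overlap (adjusted p = 0.000623, and 0.0364 against aged), and Zfp930 fell from 53.0 to 29.3 CPM (adjusted p = 0.00299).

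Of 26 Wnt genes, Dkk1, a secreted inhibitor of the pathway, Lgr4, a receptor, and Tcf7, a transcription factor, were higher, and Csnk1a1, a kinase of the complex that degrades beta-catenin, lower. Dkk1 had 1.61, 1.04 and 2.36 CPM in young, 5.07, 3.11 and 3.30 CPM in aged and 7.91, 8.99, 5.99 and 6.18 CPM in spermidine libraries, the highest group without overlap (log2 fold change 2.13 ± 0.29, adjusted p = 0.0014). Csnk1a1 fell from 112 to 80.1 CPM and was also below aged (adjusted p = 0.0346 and 0.0241). Of 20 clock genes Per3 and Bhlhe41, both repressors, were higher, Bhlhe41 with 5.81, 6.68 and 7.29 CPM in young and 17.96, 18.1, 13.9 and 13.5 CPM in spermidine libraries (adjusted p = 0.00174). Dkk1, Per3 and Bhlhe41 kept their calls whichever library was left out, while without young library 3 the adjusted p was 0.137 for Lgr4 and 0.181 for Tcf7, and without young library 1 it was 0.107 for Csnk1a1. Splicing, nuclear pore, DNA repair, chromatin modifiers, vesicle transport, the actin cortex and apoptosis had at most 2 genes each called by edgeR. There were up to 6 lower for splicing and 4 lower for vesicle transport over the alternatives. For apoptosis edgeR called 0 of 23 (1 higher and 1 lower at an unadjusted p below 0.05; DESeq2 called 1 lower).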

How the data were processed

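Tools named in the submitters' processing notes are RSEM 1.3.1, Bowtie2 2.3.4.3 and DESeq2 1.4.5, and the build named is mm9; their roles are not given. The deposited table holds an estimated count for each of 18493 genes in each library, a read count per the file headers. Counts were rounded to whole numbers. The sources used here do not say whether counting used strand, so a gene and an overlapping or antisense one share their reads. The authors' deposited log2 fold changes, p-values and q-values were left out.

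With R 4.3.3 and edgeR 4.0.16, genes passing filterByExpr were scaled by TMM factors and tested (quasi-likelihood F test, robust) in 1 model of the 10 libraries, so that the 3 groups share the estimate of spread. CPM are counts relative to the scaled library total; log2 fold changes carry the SE of that fit, and no interval was made where a group had no count. Simulated counts for spermidine minus young covered 12145 genes. There the test recovered 52% of genes with a true log2 change of 1 and 99% with one of 2. Of 164 calls 13 were false, and 95.4% of the 95% intervals held the true value. No change was put into transcripts averaging under 1 CPM, so recovery does not cover the 2095 tested genes at that level. Whether these figures carry over to the real libraries, with their length and GC trends, was not tested. DESeq2 1.42.0 was an alternative, run on the same counts.

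Named genes were the 12 largest rises and 12 largest falls (called, groups not overlapping, at least 20 CPM in the higher group, no predicted genes), up to 4 called genes of smallest p per list, the 12 largest changes near young again, and the 12 most abundant. The comparison, the 49 lists and this rule were chosen with earlier results of these data known. Scarb2, Nsf, Gsta4, Gstz1, H2-D1, Cpeb1, Zp3, Odc1, Sms, Sat1 and 2 predicted genes, outside the rule, were chosen after their values were seen. Numbers of the libraries were not treated as pairs. Alternatives are in the closing section.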

Additional observations from a re-analysis of the deposited data

Results flagged for a closer look

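Of 169 sets of 4 spermidine libraries checked, 4 held a library whose gap to the nearest other one was large beside the group's whole range, and chance flags about 1 set in 20. Prex2 had 45.95 CPM in spermidine replicate 4, against 20.7 to 23.3 CPM in the other 3 libraries. Bcat2 had 20.33 CPM in spermidine replicate 4, against 3.36 to 5.48 CPM in the others. Ap3b1, a subunit of the AP-3 coat that carries cargo to lysosomes, had 27.3 CPM in spermidine replicate 3, against 22.8 to 23.2 CPM. The median log2 deviation of the proteasome list was -0.098 in spermidine replicate 1, against 0.01 to 0.02 in the other 3. Prex2 and Bcat2 kept their calls without spermidine replicate 4, though Bcat2 lost its call when only the young and spermidine libraries were fitted.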

How the results depend on the processing

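Among 96 named genes called against young, 46 kept the call whichever of the 10 libraries was left out, 44 kept it under every alternative run and 0 reversed. The 424 higher genes became 175 and the 236 lower genes 98 with at least 10 CPM required in 3 libraries. The lower count was 126 with total counts as the scale, 520 with DESeq2, 404 after a length and GC correction and 117 with a change of at least 2-fold required. With RLE factors the split was 366 higher and 275 lower. A band of 2-fold held 8319 genes. Aged minus young gave 1179 genes under the stricter filter. Spermidine minus aged gave 259 genes with total counts and 1366 with DESeq2. Leaving out 1 library at a time gave 165 to 496 higher, 118 to 378 lower and 2006 to 3972 near young, 827 to 2362 for aged minus young and 99 to 1127 for spermidine minus aged. Leaving out aged 1 and spermidine 1 together, chosen after seeing the data, gave 488 higher, 306 lower and 4653 near young. With the replicate block the counts were 397 higher, 234 lower, 2930 near young and 998 for spermidine minus aged. Same-numbered libraries deviated together with r of -0.072, -0.281 and -0.032, so the numbers were not taken as pairs. The cause of these shifts was not tested. Depth limits genes under 1 CPM, of which 0.0477% could be placed near young.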

Other observations

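By the cellular component terms in the deposited table, mitochondrion was given for 11.8% of all tested genes, 7.78% of those higher and 7.63% of those lower in spermidine than in young oocytes, and 15.7% of those near young. The term ribosome was given for 1.48% of tested genes, 0.236% of those higher, none of those lower and 3.8% of those near young. Nucleus was given for 37.1% of tested genes, 25.2% of the higher and 26.3% of the lower. Cytosol was given for 23.1%, 14.2% and 15.7% of these, and cytoskeleton for 8.24%, 4.01% and 5.08%. Golgi apparatus was given for 7.77%, 6.37% and 5.08%, lysosome for 2.39%, 1.65% and 0.847%, and endoplasmic reticulum for 8.68%, 6.6% and 8.05%. Lower shares among called genes were thus not particular to mitochondrion and ribosome. Plasma membrane was given for 19% of tested genes, 17.2% of the higher, 23.3% of the lower and 14.7% of those near young, and extracellular region for 5.37%, 6.13%, 8.47% and 3.71%. Genes near young have higher counts on the whole; among genes of at least 20 CPM the term ribosome was given for 5.4% of those near young and 3.69% of all, and mitochondrion for 17.9% and 15.9%. The shares were not tested.

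Among predicted genes, which the naming rule left out, Gm13103 had 6.40, 4.99 and 4.63 CPM in young, 350, 351 and 339 CPM in aged and 177, 288, 278 and 23.97 CPM in spermidine libraries. Gm13089 had 3.78, 3.56 and 3.87 CPM in young, 47.1, 53.4 and 61.0 CPM in aged and 41.7, 64.5, 53.1 and 17.1 CPM in spermidine libraries. Spermidine replicate 4 was the lowest of its group for both genes and also for Manba, Srgn, Dbt and Anxa5. The log2 fold change to young was 5.17 for Gm13103 (adjusted p = 0.00232, edgeR quasi-likelihood test) and 3.56 for Gm13089 (adjusted p = 0.000209).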
